A study of Mus musculus with 2 samples.

Results

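Chromatin immunoprecipitation followed by sequencing (ChIP-seq) recovers the DNA fragments that a protein is bound to, and a peak is an interval where such fragments pile up. The peaks described here lie inside a protein-coding gene, with their midpoint over 1 kb and at most 10 kb from the nearest start or end of any annotated gene. They numbered 1004 of 4133 nuclear Gata1 peaks (24.3%, 95% Wilson interval 23.0 to 25.6%). Gata1 was immunoprecipitated from mouse embryonic stem cells differentiated for 5 days as embryoid bodies and sorted as Runx1-ires-GFP+/Gata1::mCherry+, which the design text equates with primitive erythroid cells. The data comprised 1 Gata1 ChIP library and 1 control library of the same sorted cells. The control is titled input, although its antibody entry names a rabbit IgG, and no values of it are analysed here. All cells used carried both reporters and were made in culture, and material from several sorts was pooled. The list gives the position of each peak and no height, score or read count, so a site is either called or not called, and depth is unknown. Since there is no RNA measurement, the cell type could not be checked by expression. Of its defining erythroid genes, 2 of 8 held a peak of this class, Gata1 itself among them, as did 1 of 4 megakaryocyte, 0 of 4 endothelial, 0 of 4 myeloid and 0 of 4 cardiac markers. Over all protein-coding genes the share was 4.33%, and the erythroid markers include globin genes too short to hold such a peak. Counts this small do not tell the cell types apart.

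Gata1 is the zinc finger factor that switches on the red cell programme, and it binds short GATA sequences together with partners such as FOG-1 and the Tal1, Ldb1 and Lmo2 complex. Many well-studied erythroid enhancers lie not at a promoter but within the first kilobases of a gene or in its introns. A peak of the present class can lie in such an element, or at a start site that the outer limits of the gene do not show. The RefSeq gene table gives outer limits only and no exons, so intron and exon could not be told apart.

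Some of these peaks lay on start sites inside their host gene, and there the underlying sequence can be read from the RefSeq promoter table (build GRCm38.p6, equal to mm10; 250 bases before to 50 after each listed start). The windows below are those of listed genes (see the gene lists further on) with a GATA motif under the peak, and the window with the most motifs under a peak. Capitals mark every match, on either strand, to a GATA motif, spelled AGATAA with its variant AGATAG, and likewise TGATAA with its variant TGATAG. A run such as TTATCT is thus a motif read from the opposite strand.
Uros, chr7:133702451-133702750, minus strand: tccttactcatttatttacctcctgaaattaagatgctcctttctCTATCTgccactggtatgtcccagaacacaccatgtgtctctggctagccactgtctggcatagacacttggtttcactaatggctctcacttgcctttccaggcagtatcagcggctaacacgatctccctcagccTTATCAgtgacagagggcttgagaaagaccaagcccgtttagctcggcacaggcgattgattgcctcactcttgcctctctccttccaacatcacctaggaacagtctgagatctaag
Ldb1, chr19:46037021-46037320, minus strand: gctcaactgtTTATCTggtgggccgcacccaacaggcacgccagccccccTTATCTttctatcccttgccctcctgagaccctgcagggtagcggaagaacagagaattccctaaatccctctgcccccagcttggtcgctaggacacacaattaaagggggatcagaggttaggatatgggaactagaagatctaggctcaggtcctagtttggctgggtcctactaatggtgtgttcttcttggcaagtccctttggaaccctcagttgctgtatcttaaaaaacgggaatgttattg
Zbtb7a, chr10:81136021-81136320, plus strand: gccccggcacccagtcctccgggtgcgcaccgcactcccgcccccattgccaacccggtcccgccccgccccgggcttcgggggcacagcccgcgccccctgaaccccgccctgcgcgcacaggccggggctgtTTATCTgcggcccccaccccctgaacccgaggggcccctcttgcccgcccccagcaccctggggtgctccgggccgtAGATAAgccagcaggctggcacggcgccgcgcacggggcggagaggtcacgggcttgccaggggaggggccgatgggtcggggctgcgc
Gpx4, chr10:80053761-80054060, plus strand: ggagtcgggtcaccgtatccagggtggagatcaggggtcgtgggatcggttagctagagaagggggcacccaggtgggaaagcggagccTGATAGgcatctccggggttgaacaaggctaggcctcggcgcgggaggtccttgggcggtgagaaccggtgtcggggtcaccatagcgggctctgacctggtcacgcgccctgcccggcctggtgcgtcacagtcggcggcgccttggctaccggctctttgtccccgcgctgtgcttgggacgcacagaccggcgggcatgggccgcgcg
Grin2d, chr7:45866632-45866931, minus strand: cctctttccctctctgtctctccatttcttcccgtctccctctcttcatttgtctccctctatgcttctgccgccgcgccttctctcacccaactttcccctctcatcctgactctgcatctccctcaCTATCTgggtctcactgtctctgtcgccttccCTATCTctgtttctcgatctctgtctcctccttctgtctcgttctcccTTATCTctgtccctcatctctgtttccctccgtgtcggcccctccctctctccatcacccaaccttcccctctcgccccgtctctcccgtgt

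Uros encodes the fourth enzyme of haem synthesis and is known to have separate housekeeping and erythroid promoters. Its peak was centred 7.87 kb from the gene's 5′ end and covered all 300 bases of the window of a start inside the gene, with motifs beginning 205 and 68 bases upstream of that start. Ldb1, the scaffold of the Tal1 and Gata1 complex, had a peak centred 271 bp upstream of a listed start, and both of its motifs, 240 and 200 bases upstream, lay under the peak. Zbtb7a, a repressor of fetal globin genes, had 2 motifs, of which the nearer, 39 bases upstream, lay inside the peak. Gpx4, the peroxidase that reduces lipid peroxides, had 1 motif 161 bases upstream. Grin2d, a glutamate receptor subunit gene, had 3 motifs, beginning 122, 90 and 42 bases upstream of its only listed start, and the peak midpoint lay 4.49 kb from the gene's 5′ end. Each match is a run of letters and was not tested as a binding site.

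In all, 39 of the 801 peaks whose host gene is in the promoter table overlapped a promoter window (4.87%, 3.58 to 6.59%), against 13 of 671 peaks over 10 kb from every gene end (1.94%, 1.14 to 3.29%). The difference was not tested, because start sites gather near the gene ends that define the classes. Counted per start instead, 46 of 2618 listed starts that lie 1 to 10 kb from a gene end inside a protein-coding gene had a peak over their window (1.76%, 1.32 to 2.34%), 13 of 1185 starts deeper inside genes did (1.10%, 0.642 to 1.87%), and 476 of 28123 starts within 1 kb of a gene end did (1.69%, 1.55 to 1.85%). The 3 intervals overlap. A GATA motif was present in 23 of the 44 windows that the 39 peaks overlapped (52.3%, 37.9 to 66.2%), in 196 of the 478 windows overlapped by peaks within 1 kb of a gene end (41.0%, 36.7 to 45.5%) and in 9778 of all 32851 windows of the table (29.8%). Windows of the same gene can overlap under the same peak and share a motif, as those of Gpr108 do. The intervals take windows as independent, which these are not. Among listed starts over 10 kb from every gene end, 11 of the 13 windows under a peak held a motif (84.6%, 57.8 to 95.7%), so a motif share above that of all windows was not particular to peaks 1 to 10 kb from a gene end. The 39 peaks fell on 39 genes, among them Aldoa and Ireb2, whose windows held no motif, and, chosen after their values were seen, the ferritin receptor gene Ncoa4 and the nucleoside transporter gene Slc29a1, also without a motif.

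**Figure D1:**
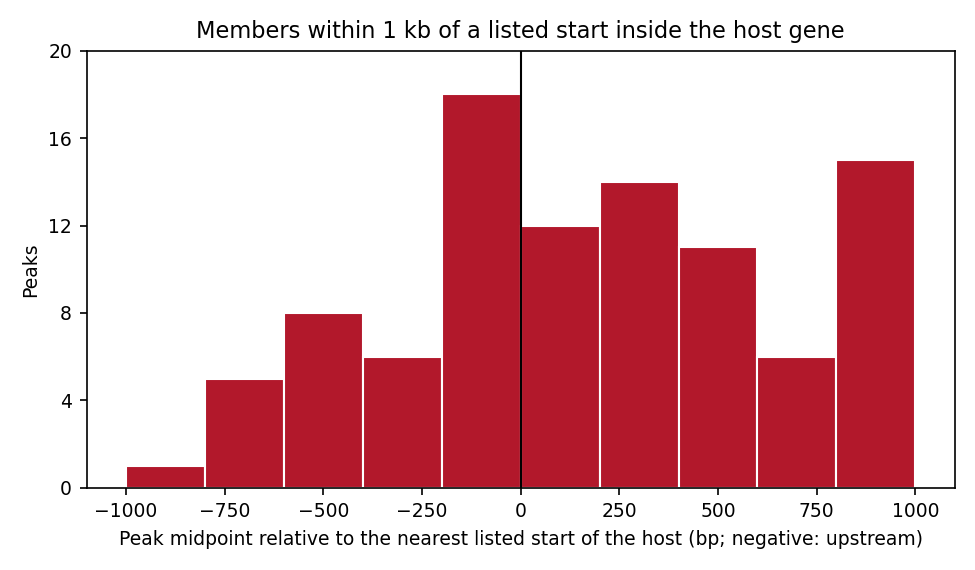
Number of peaks (vertical axis) by distance of the peak midpoint from the nearest listed start of its host gene (horizontal axis, bp, bins of 200 bp), for the 96 of 801 peaks within 1 kb of such a start. The fullest bin holds 18 peaks and ends at the start, and 58 of the 96 midpoints lie downstream.

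Within 1 kb of a listed start of the host were 96 peaks (12%), and 57 peaks (7.12%, 5.53 to 9.11%) lay upstream of every listed start of the gene that contains them. Gata1 itself is an example. Both of its peaks are inside the outer limits of the gene, 5.16 and 8.22 kb from the 5′ end, yet their midpoints lie at -3.59 and -0.532 kb relative to its only listed start, that is, upstream of it. An enhancer upstream of Gata1 is well known in mouse. For these 57 peaks the word intragenic describes the outer limits of the gene table and not the listed transcripts.

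The peaks were not spread evenly along their host genes: they were denser near the 5′ end than near the 3′ end. Strand was known for the hosts of 799 peaks, and 520 of these were nearer the 5′ end (65.1%, 61.7 to 68.3%). Of the peaks over 10 kb from every gene end it was 365 of 671 (54.4%, 50.6 to 58.1%). Where the nearest gene end was the 5′ end of the host, 364 peaks fell in 78.1 Mb of gene body, or 4.66 per Mb (95% exact Poisson interval 4.20 to 5.17). Where it was the 3′ end, 147 peaks fell in 81.6 Mb, or 1.80 per Mb (1.52 to 2.12). Peaks inside protein-coding genes within 1 kb of the nearest end had 19.3 per Mb (17.1 to 21.6) on the 5′ side. On the 3′ side those had 2.32 (1.63 to 3.22). Over 10 kb from every gene end the sides had 1.6 (1.38 to 1.84) and 1.31 per Mb (1.12 to 1.52). The higher density on the 5′ side was thus not particular to this class and was larger within 1 kb. The density over the whole class was 3.00 per Mb (2.82 to 3.19), and it was 1.38 per Mb (1.29 to 1.47) for the 869 peaks over 10 kb from every gene end. The 3′ side of the class was thus low against its 5′ side but not against the deeper gene body.

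On the 5′ side the density was 9.36 per Mb between 1 and 2 kb (7.75 to 11.2), 6.44 between 2 and 3 kb, 4.18 between 3 and 4 kb and 2.42 between 4 and 5 kb (1.52 to 3.66). It was 4.95 per Mb between 5 and 6 kb (3.55 to 6.72) and between 2.19 and 3.02 in the bins beyond that. On the 3′ side every 1 kb bin held between 1.33 and 2.68 per Mb. The intervals of the sides overlapped between 4 and 5 kb and in every bin from 6 kb onward, and in the other 4 bins the 5′ side lay above the 3′ side without overlap. These intervals cover the counting of peaks only and treat peaks as independent.

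**Figure D2:**
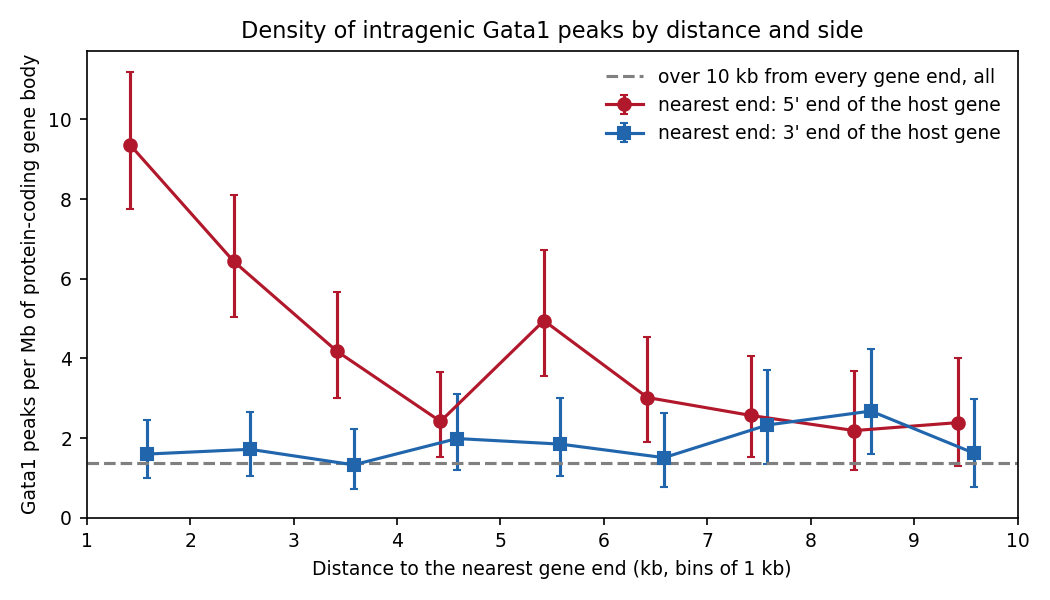
Gata1 peaks per Mb of protein-coding gene body (vertical axis) by distance to the nearest gene end in bins of 1 kb (horizontal axis), where that end is the 5′ end (circles) or the 3′ end (squares) of the host gene. Bars are 95% exact Poisson intervals, and the dashed line is the density over 10 kb from every gene end, 1.38 per Mb; the 5′ side starts at 9.36 per Mb while the 3′ side stays between 1.33 and 2.68.

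Peaks within 1 kb of a listed start lay mostly on the 5′ side. Without them, and with the gene body kept whole, the 5′ side held 292 of its 364 peaks, or 3.74 per Mb, and the 3′ side held 143 of its 147, or 1.75 per Mb. Among hosts whose outer 5′ end in the gene table is itself a listed start (within 100 bp), the densities were 3.95 per Mb (3.45 to 4.50) on the 5′ side and 1.84 per Mb (1.51 to 2.23) on the 3′ side. In those hosts the first bin, 1 to 2 kb, held 6.86 per Mb (5.29 to 8.74) on the 5′ side and 1.56 per Mb (0.871 to 2.57) on the 3′ side.

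The nearest gene end belonged to the host itself for 639 peaks (63.6%, 60.6 to 66.6%). For the other 365 it belonged to another gene, which was a lncRNA for 212, protein-coding for 79, a pseudogene for 32 and a miRNA for 24. In 237 of the 365 that other gene lay wholly inside the host. An example is the peak in Egfl7, an endothelial gene whose intron carries the miRNA gene Mir126a, 2.52 kb from the peak. The rule that defines the class therefore takes in peaks deep inside long genes that hold noncoding genes, such as those 94.1, 115 and 132 kb from the 5′ end of Clec16a.

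The distance to the nearest gene end had a median of 3.60 kb (quartiles 1.89 and 6.08 kb). At the bounds, the closest peaks inside were 1002 bp (Tmem86b) and 1003 bp (Isl2) from a gene end, and the closest outside were both at 996 bp (Rec8 and Ddx55). At the far bound the last inside were 9970 bp (Grhl2) and 9973 bp (Ece1), and the next outside were 10045 bp (Tbc1d2b) and 10065 bp (Kdm2b). The class thus cuts a continuous range.

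Such a peak was found in 943 of 21779 protein-coding genes (4.33%), or 4.93% of the 19133 genes that have any position 1 to 10 kb from the nearest gene end. The host genes had a median length of 39.5 kb, against 17.2 kb for all protein-coding genes. For 801 of the 943 host genes (84.9%, 82.5 to 87.1%) these were the only Gata1 peaks in the gene body. Of the other 142 hosts, 50 had a peak within 1 kb of a gene end as well and 99 had a peak over 10 kb from every end. Some, such as Gse1, had both. The shares of the lists below are to be read against 4.33%. The lists were chosen with earlier results of these data known, so they are descriptions and carry no test. Genes beyond the first 6 of a list, by number of peaks and then by symbol, were chosen after their values were seen.

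Genes of haem synthesis and iron handling held such a peak in 12 of 30 genes (40%, 24.6 to 57.7%), with 15 peaks in 411 kb of eligible gene body, or 36.5 per Mb against 3.00 over the class. Among the enzymes, Alas2, which starts haem synthesis in red cells, had 2 peaks on the X, 2.36 and 17.5 kb from its 5′ end, and in human the corresponding gene has erythroid enhancers in its introns. Alad, the next enzyme, had 1 peak at chr4:62516574-62516973, 3.29 kb from the 5′ end, and the nearest other Gata1 peak was 2650 kb away. Fech, which inserts iron to complete haem, had 1 peak 3.25 kb from its higher-coordinate end. Genes of mitochondrial proteins of the pathway also held such peaks. Tmem14c, needed to move protoporphyrin into the matrix, had 2 peaks, 1.78 and 4.46 kb from the 5′ end of a 6.33 kb gene. Fam210b, an erythroid mitochondrial protein gene, had 2 peaks 1.03 kb apart, at 1.92 and 2.95 kb. Slc25a38, the mitochondrial glycine importer needed for haem synthesis, had 1 peak at 5.45 kb. Glrx5, an iron-sulphur cluster factor, had 1 at 1.95 kb. Of the iron handling genes, Snx3, which recycles the transferrin receptor, had a peak 1.03 kb from its 3′ end. Tfr2, the second transferrin receptor, had 1 at 2.89 kb from its 3′ end, and Slc11a2, an iron transporter, had 1 at 4.12 kb from its higher-coordinate end. Ireb2, an iron sensor that binds RNA, had 1 at 1.06 kb from its outer 5′ end. That peak lay at its only listed start, with the midpoint at -0.04 kb relative to it. Alas1, Urod, Cpox and Ppox held none of this class.

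Blood transcription factors held such a peak in 11 of 41 genes (26.8%, 15.7 to 41.9%), with 14 peaks or 15.7 per Mb. Zfpm1, which encodes the Gata1 cofactor FOG-1, had 2, at 5.26 and 11.9 kb from the 5′ end, among 8 peaks in the gene. Etv6, an Ets-family repressor, had 2, at 2.81 and 154 kb from the 5′ end of a 234 kb gene. Gata2 had 1 at chr6:88202984-88203383, 9.29 kb from its outermost 5′ end and 4.52 kb downstream of its nearest listed start, in the part of the gene where an intronic enhancer is known in mouse. E2f2, a cell cycle factor, had 1 at 5.85 kb and Foxo3, a stress response factor, had 1 at 32.1 kb from the 5′ end, beside the noncoding gene Gm38485. Lyl1, a relative of Tal1, had 1 at 2.20 kb in a 3.29 kb gene. Runx1 had 1 at 3.81 kb downstream of its distal 5′ end. Nfe2, an erythroid and megakaryocyte factor, had 1 at 3.59 kb from its lower-coordinate end. Klf1, Tal1 and Lmo2 held none of this class.

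Red cell membrane and skeleton genes held such a peak in 8 of 29 genes (27.6%, 14.7 to 45.7%), with 10 peaks or 18.1 per Mb. The count was 5 with a lower bound of 2.5 kb and 4 with an upper bound of 5 kb. Tmod1, which caps the actin filaments of the skeleton, had 2, at 1.94 and 36.9 kb from its 5′ end. Rhd, of the Rh blood group complex, had 1 at chr4:134869373-134869772, 5.04 kb from its 5′ end. Bsg, encoding basigin, had 1 at 1.81 kb from its lower-coordinate end, and Tpm3, a tropomyosin gene, had 1 at 7.91 kb from the 5′ end. Slc4a1, encoding the anion exchanger band 3, had 1 at 1.44 kb from its higher-coordinate end. In Epb41, encoding a protein that ties spectrin to actin, the peak lay 4.17 kb from the 3′ end of a 152 kb gene, and in Ank1 (ankyrin) it lay 53.3 kb from the lower-coordinate end, 6.75 kb from the end of Gm51563. The membrane genes thus included peaks near both ends.

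Antioxidant genes, which protect the red cell and its haemoglobin from peroxides, held such a peak in 6 of 20 genes (30.0%, 14.5 to 51.9%), each with 1 and with no other Gata1 peak in the gene. With a lower bound of 2.5 kb the count was 3. Prdx2, the abundant red cell peroxiredoxin, had it at chr8:84971021-84971420, 1.60 kb from the 5′ end. Prdx3 had it at 2.11 kb and Cat, encoding catalase, at 3.50 kb from the 5′ end, and Prdx6 at 1.04 kb from its higher-coordinate end. In Gpx4 it lay 6.67 kb from the 5′ end, over the inner start whose window is shown above, and in Txnrd1, a thioredoxin reductase gene, 54.9 kb from the 5′ end and 8.92 kb from the 3′ end. Only 1 further gene of this list had any peak in its body.

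Glycolysis genes held such a peak in 4 of 21 genes (19.0%, 7.67 to 40%), or in 2 with a lower bound of 2.5 kb and 7 with an upper bound of 20 kb. Hk1, encoding the hexokinase of red cells, had 3, at 34.6, 37.1 and 47.1 kb from the 5′ end of a 111 kb gene, and the first pair lay at -4.94 and -2.35 kb relative to its nearest listed start, upstream of it. Aldoa (aldolase A) had 2 in 5.76 kb, at 1.69 and 2.28 kb from the 5′ end, of which the former lay over listed starts inside the gene. Eno1 (enolase) had 1 at 1.45 kb and Pfkp, a phosphofructokinase gene, had 1 at 6.41 kb. All 4 genes encode enzymes that act between glucose entry and pyruvate, which follows from the choice of the list.

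Of megakaryocyte and platelet genes, 5 of 25 held such a peak (20%, 8.86 to 39.1%): Itga2b (integrin alpha IIb), 6.30 kb from its 5′ end, Itgb3, its partner, Tubb1, the platelet tubulin, Pdgfb and Nfe2, and the count was 3 with an upper bound of 5 kb. Growth factor signalling genes had 4 of 26 (15.4%, 6.15 to 33.5%), among them Kit, the stem cell factor receptor gene, with a peak at chr5:75579901-75580300, 5.11 kb from its 5′ end, Bcl2l1, a survival gene, Bnip3l, a mitophagy receptor gene, and the adaptor gene Gab1. None of the signalling genes held one with an upper bound of 5 kb, where the count was 0. The signalling genes are long, with a median of 63.1 kb. Per eligible gene body they had 6.98 peaks per Mb (1.9 to 17.9), an interval that takes in the 3.00 over the class. The megakaryocyte and platelet genes had 15.2 per Mb (4.93 to 35.4), which lies above it. The intervals of the remaining lists took in 4.33%. Corepressor and chromatin genes had 3 of 30 (Chd3, Dnmt3a and Gse1), autophagy genes 3 of 31 (Atg10, Bnip3l and Ulk1), cell cycle genes 2 of 23 (Ccnd3 with 2 peaks, and E2f2), endothelial genes 2 of 24 (Egfl7 and Flt1), cardiac and mesoderm genes 1 of 24 (Gata6) and housekeeping genes 1 of 25 (Rab7). Among 11 globin cluster genes only Nprl3, the neighbour of the alpha-globin genes, held one, 2.39 kb from its 5′ end, and the other 10 have no position of this class. No peak of this class lay in the 22 myeloid and 19 mast cell and eosinophil genes, which allows shares of up to 13.6 and 15.8% of all listed genes by the limit of 3 counts. Each of those lists has 17 genes with any position 1 to 10 kb from the nearest gene end.

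**Figure D3:**
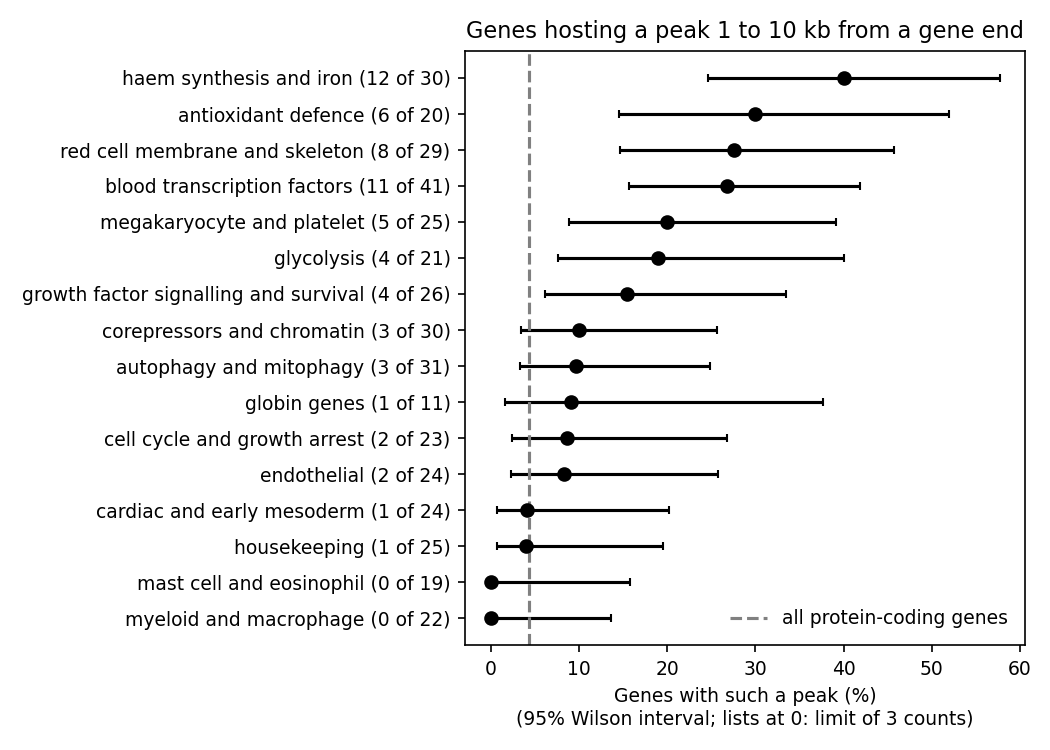
Share of the genes of each list that hold a peak 1 to 10 kb from the nearest gene end (horizontal axis, percent, with 95% Wilson intervals, or up to the limit of 3 counts for lists at 0), with the counts beside each list name. The dashed line is the 4.33% of all protein-coding genes; haem and iron genes reach 40%, and myeloid and mast cell genes are at 0.

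**Figure D4:**
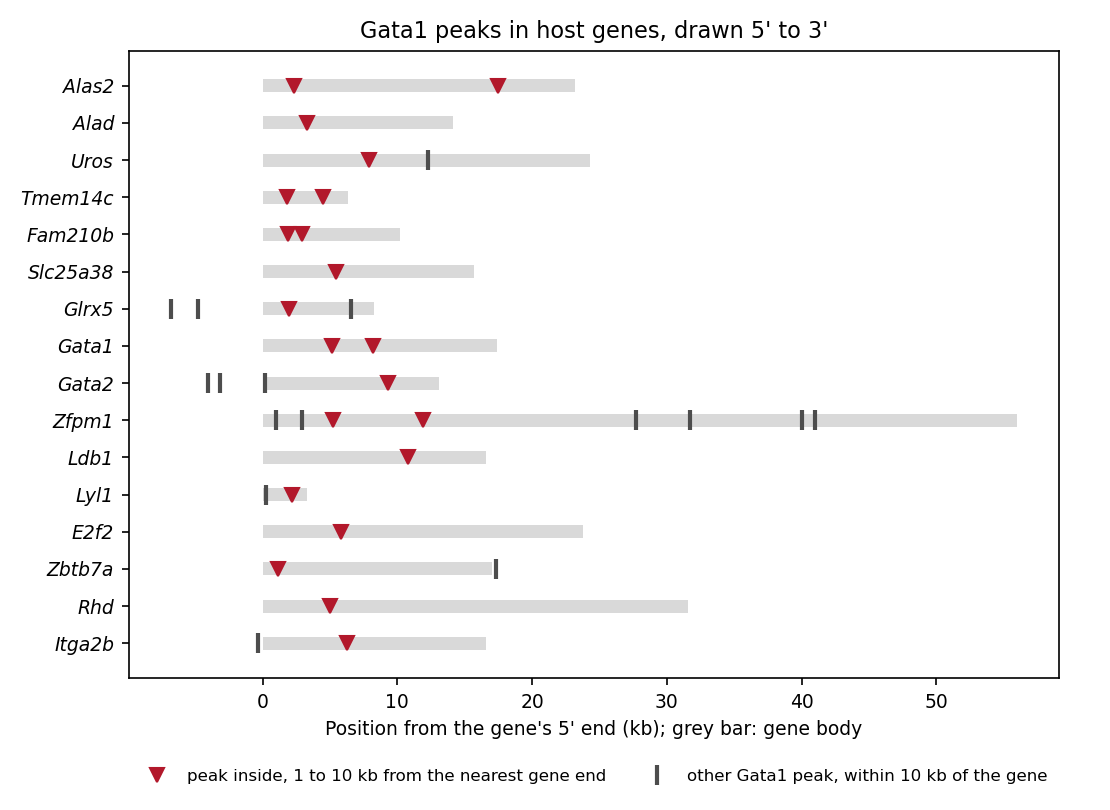
Gene bodies (grey bars) of 16 host genes drawn to scale from their 5′ end (horizontal axis, kb), with the peaks of this class as triangles and other Gata1 peaks within 10 kb as upright marks. Most triangles sit within 10 kb of the 5′ end, as the 2 in Fam210b at 1.92 and 2.95 kb, while Zfpm1 combines 2 triangles with 6 other peaks in the gene. The genes drawn are a selection of listed hosts of known strand and do not stand for the class. Over the class, 482 of 799 peaks (60.3%) lay within 10 kb of the host 5′ end. Listed hosts not drawn include Snx3, Tfr2, Txnrd1 and Epb41, whose peaks lay nearer the 3′ end.

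Of the 8 host genes with at least 3 such peaks, only Hk1 was on one of the lists. Cdkl1, a kinase gene, had 4 peaks in 46.0 kb, of which 3 had Mir681 as their nearest gene. Clec16a, a regulator of mitophagy, also had 4. Galnt10, St3gal2 and St6galnac3, which encode enzymes that add or cap sugar chains, had 3 each, as did the kinase gene Hipk2, Hk1 and Mideas, a partner of histone deacetylases. In all, 69 host genes (7.32%, 5.82 to 9.16%) held at least 2. Peaks in the same gene can be close: those of Fam210b were 1.03 kb apart and those of Aldoa 0.594 kb apart, and without read coverage it cannot be told whether such a pair is 2 sites or 1 region called in parts.

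Another Gata1 peak lay within 10 kb for 180 of the 1004 peaks (17.9%, 15.7 to 20.4%), against 127 of the 869 peaks deeper inside genes (14.6%, 12.4 to 17.1%). The difference of 3.31 percentage points had a 95% Newcombe interval of -0.0523 to 6.63 and was not past the 0.05 threshold (Fisher's exact test over peaks, two-sided, p = 0.06). That test takes peaks as independent, which close peaks are not. Peaks over 10 kb from every gene end can hardly have a peak within 1 kb of a gene end as neighbour within 10 kb. The rule that sets the classes thus enters the comparison, so the difference does not measure clustering apart from the rule. With runs of peaks within 2 kb counted once, the difference was 2.04 points (Fisher's exact test, p = 0.21). It was 0.854 points with an upper bound of 5 kb (exact p = 0.65) and 0.0228 points with an upper bound of 20 kb (exact p = 1.0). It passed the threshold with only ends of protein-coding genes used (4.34 points, exact p = 0.012) or with a lower bound of 2.5 kb (4.19 points, exact p = 0.034). The nearest other peak was another of this class for 93 of the 180 and a peak within 1 kb of a gene end for 62. It lay in the same host gene for 131.

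**Figure D5:**
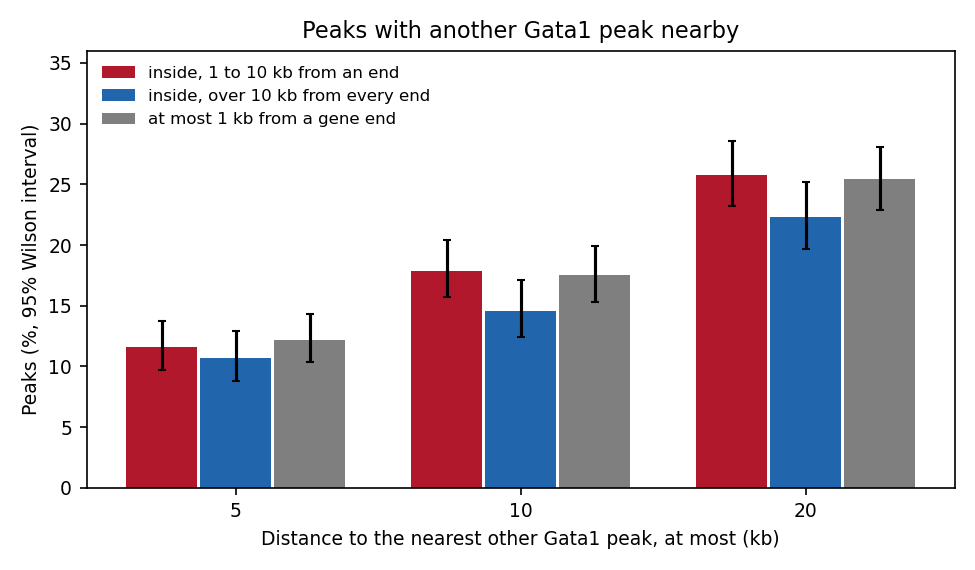
Share of peaks with another Gata1 peak within 5, 10 or 20 kb (vertical axis, percent, 95% Wilson intervals), for peaks inside genes 1 to 10 kb from an end, for peaks over 10 kb from every end and for peaks within 1 kb of a gene end. At 10 kb the shares are 17.9, 14.6 and 17.5%.

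Between autosomes the share of peaks in this class ran from 19.5% on chromosome 3 to 28.6% on chromosomes 10 and 19, with overlapping intervals. On the X it was 14 of 42 (33.3%, 21 to 48.4%), and those 14 included both peaks of Gata1, both of Alas2 and 1 in Was, the Wiskott-Aldrich gene, 4.67 kb from its 5′ end. On the Y it was 0 of 3.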

How the data were processed

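A list of 4135 peak positions was deposited for the Gata1 ChIP, as start and end per peak. The authors' interval is 400 bp wide for every peak. Per the submitters' processing notes, Bowtie2 2.0.6 and MACS2 2.0.10 were used with mm10; how they were set, and whether the control entered, is not given in the sources used here. The 2 mitochondrial peaks were left out. With no score or replicate, no measure of strength and no test between conditions was possible.

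Midpoints were placed against 49603 RefSeq genes (GRCm38.p6), of which 21779 were protein-coding, after autosomal and X entries starting below 3 Mb were left out. Strand and listed starts came from a promoter table of 32851 windows of 27025 genes. Gene body was measured in the same distance bins as the peaks, without masking assembly gaps. Of 402 entries in 16 gene lists, 401 matched a protein-coding gene; Hbb-bh0 did not, and some genes are on more than 1 list. Up to 6 hosts per list (by number of peaks, then symbol), the 10 hosts with the most peaks and the peaks nearest the bounds were named by rule; any others were picked with their values in view. A few genes enter the counts without being reported by name here. Members and lists were chosen with earlier results of these data known. Shares have Wilson and densities exact Poisson 95% intervals. The only test was Fisher's exact test over peaks. The planned motif test over whole peaks was not run, since no genome was used here. Python 3.11.15, numpy 2.4.6, scipy 1.17.1, pandas 2.3.3 and matplotlib 3.10.9 were used.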

Additional observations from a re-analysis of the deposited data

How the results depend on the processing

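The number of peaks depends on the bounds by construction: it was 638 with a lower bound of 2.5 kb and 637 with an upper bound of 5 kb, in 606 and 621 genes. Their share of nuclear peaks was 15.4% with either, 32.9% with an upper bound of 20 kb and 20.5% with ends of protein-coding genes only. The share nearer the 5′ end was 68.5% with ends of protein-coding genes only, 58.6% with a lower bound of 2.5 kb, 69.9% with an upper bound of 5 kb and 71.2% where the nearest gene end was the host's own, so it stayed above 50% throughout. The 5′ density was 3.74 per Mb without peaks near a listed start and 3.95 per Mb for hosts whose 5′ end is a listed start. The share with another peak nearby was 13.6% with runs within 2 kb counted once, and 11.6 and 25.8% with limits of 5 and 20 kb. The difference from deeper peaks in that share was 4.34 points with ends of protein-coding genes only and 4.19 points with a lower bound of 2.5 kb, both past the threshold. It was 2.04 with runs counted once, 0.854 and 0.0228 with upper bounds of 5 and 20 kb, and 0.852 with a limit of 5 kb, none past it. The distance rule of the classes enters this difference, and its cause was not tested. Of 112 recomputed list counts, 96 were within 1.5 times, 13 lower and 3 higher; those of the red cell membrane, antioxidant, glycolysis, megakaryocyte and signalling lists stand beside their results, and the others moved are lists of at most 3 host genes. The alternative of 1 host per peak was run for the overall count only. The density alternatives, the limits of 5 and 20 kb for the difference, the counting of runs for the share with another peak nearby, and the bounds and biotypes applied to that share, the 5′ share and the difference were chosen after seeing the data. No paired analysis was possible because there is 1 ChIP library. A stricter threshold and depth could not be examined.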
